A study of Mus musculus with 2 samples.

Results

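The genes described here are the metallothioneins Mt1 and Mt2, the zinc-sensing transcription factor gene Mtf1, 3 genes of the ZnT family (Slc30a1, Slc30a5 and Slc30a7) and 3 genes of the ZIP family (Slc39a1, Slc39a6 and Slc39a7). They are 9 of the 20330 gene identifiers in the table and were selected by name, with the wild type (WT) and knockout (KO) values of this table already known. Those values are therefore given as a description and support no further statement. Adipose tissue macrophages (ATM), the macrophages found in fat, were sorted with F4/80 and CD11b antibodies from visceral fat of C57BL/6 mice that had received high-fat diet for 12 weeks. Feeding began when the mice were 4 weeks old. KO mice were hMRP8cre+;Hif-1αfl/fl;ApoE-/- and WT mice were hMRP8cre-;Hif-1αfl/fl;ApoE-/-, so ApoE deficiency and the floxed Hif-1α alleles were common to WT and KO mice, and the difference was the Cre transgene. The human MRP8 (S100A8) promoter that drives this Cre is active in myeloid cells, including neutrophils and monocytes, and not in macrophages alone. There was 1 library for each genotype, and whether animals were pooled is not stated. The differences below therefore cannot be set against a spread between replicates, and p-values are not printed.

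Metallothioneins are small, cysteine-rich proteins of the cytosol that bind zinc and copper through the sulfur of their cysteines, buffer free zinc and scavenge oxidants. MTF-1, the product of Mtf1, is activated by zinc and binds short DNA sequences called metal response elements, through which it induces Mt1, Mt2 and the zinc exporter gene Slc30a1. ZnT proteins move zinc out of the cytosol, to the outside or into organelles, and ZIP proteins move zinc into the cytosol. Metallothioneins are also known to be induced by glucocorticoids and by inflammatory and oxidative signals.

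Mt1 (ENSMUSG00000031765, GRCm38 chromosome 8, 94179082 to 94180327) and Mt2 (ENSMUSG00000031762, chromosome 8, 94172664 to 94173568) are neighbours on the plus strand with 5513 bases between them. Mt3 and Mt4 lie on the same side of Mt2, Mt3 at a distance of 18517 bases. Both Mt1 and Mt2 have 3 exons in their main annotated transcript and encode 61 amino acids. Their coding sequences from the GENCODE M21 transcripts, with the cysteine codons in capitals, are shown because the cysteines bind the metal and because reads of similar genes can be confused.
Mt1: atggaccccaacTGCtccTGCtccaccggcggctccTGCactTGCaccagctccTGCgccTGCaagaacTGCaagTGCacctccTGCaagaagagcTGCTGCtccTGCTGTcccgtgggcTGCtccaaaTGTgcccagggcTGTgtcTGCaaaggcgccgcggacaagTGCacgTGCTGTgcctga
Mt2: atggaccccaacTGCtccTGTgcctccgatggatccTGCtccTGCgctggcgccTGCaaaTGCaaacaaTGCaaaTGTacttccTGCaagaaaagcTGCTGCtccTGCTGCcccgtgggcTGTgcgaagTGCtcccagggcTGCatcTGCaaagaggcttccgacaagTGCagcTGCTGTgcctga
Each held 20 cysteine codons, 32.8% of its codons, and all 20 stood at the same place in both genes. The coding sequences were identical at 148 of 186 bases (79.6%). The longest exact run that the main transcripts shared was 20 bases, and Mt1 shared no run of 50 bases with any other annotated gene. Mt2 shared such runs with 1 gene, the antisense transcript Gm45774, which overlaps its exons by 432 bases.

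Metal response element cores were then located by their letters, TGCACNC or TGCGCNC on either strand, where N is any base. In the 250 bases before the RefSeq start sites (GRCm38.p6), 21.4% of all 32851 promoter windows held at least 1 core, 5.17% held 2 or more and 1.26% held 3 or more. Of the 8 members with a window, 4 held a core. Slc39a6 had no entry. Mt2 held 3 cores, and Mt1, Slc30a1 and Slc30a5 held 1 each. The windows of the metallothionein genes and of Slc30a1, which MTF-1 is known to induce, are shown with the cores in capitals.
Mt1, chr8:94178839-94179088, plus strand: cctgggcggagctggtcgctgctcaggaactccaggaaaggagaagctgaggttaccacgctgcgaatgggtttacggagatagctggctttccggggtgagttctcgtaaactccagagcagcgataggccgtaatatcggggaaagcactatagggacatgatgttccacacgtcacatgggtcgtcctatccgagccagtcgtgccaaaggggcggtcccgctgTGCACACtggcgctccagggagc
Mt2, chr8:94172368-94172617, plus strand: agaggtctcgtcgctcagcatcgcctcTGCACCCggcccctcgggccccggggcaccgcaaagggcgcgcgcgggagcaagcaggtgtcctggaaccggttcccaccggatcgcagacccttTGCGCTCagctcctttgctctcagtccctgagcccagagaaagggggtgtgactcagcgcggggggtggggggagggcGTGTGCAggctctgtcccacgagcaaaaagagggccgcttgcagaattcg
Slc30a1, chr1:191906531-191906780, plus strand: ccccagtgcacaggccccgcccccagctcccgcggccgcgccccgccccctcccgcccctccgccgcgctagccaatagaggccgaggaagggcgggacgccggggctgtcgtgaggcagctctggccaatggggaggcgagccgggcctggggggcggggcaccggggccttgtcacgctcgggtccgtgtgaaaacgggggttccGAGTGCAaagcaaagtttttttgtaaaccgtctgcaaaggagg
The core of Mt1 lay at -23 to -17 from its start, that of Slc30a1 at -43 to -37 on the opposite strand, and that of Slc30a5 at -48 to -42 on the opposite strand. In Mt2 the cores began at -223, -128 and -50, the last on the opposite strand. The windows of Mtf1, Slc30a7, Slc39a1 and Slc39a7 held no core, which says only that these letters are not in this stretch. Outside the 9 genes, the window of Mt4 held 1 core and that of Mt3 held none.

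**Figure D1:**
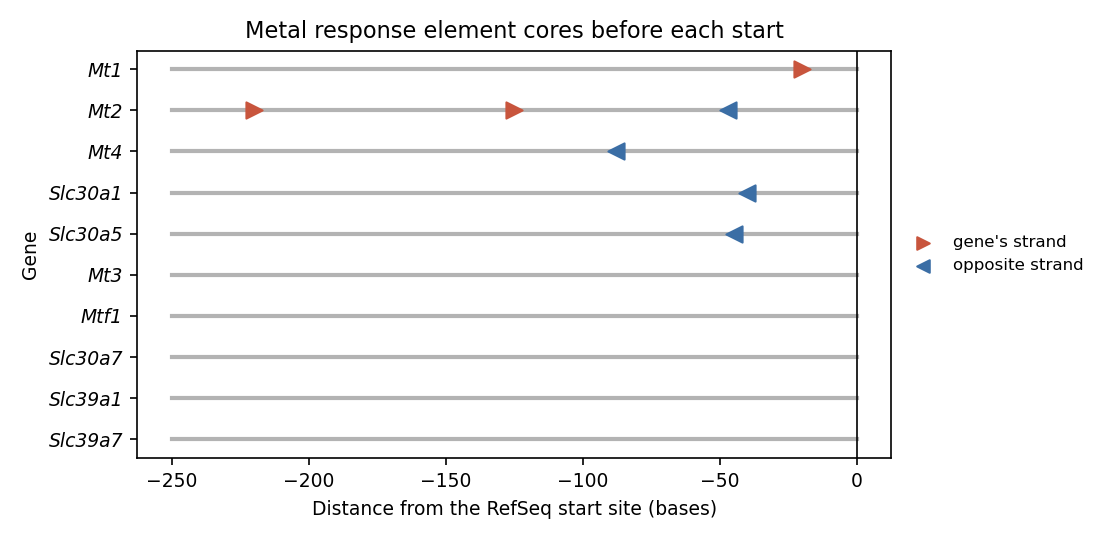
Positions of metal response element cores in the 250 bases before the RefSeq start of 10 genes. The horizontal axis is the distance from the start in bases, arrowheads mark the strand of each core, and Mt2 has 3 cores where the other genes have at most 1.

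The annotated starts of Mt1 and Mt2 lie before a TATAAA sequence, which is part of a typical TATA box, so cores were also counted in the stretch of the main transcript before these letters. The first 128 bases of the main Mt1 transcript held 4 cores and the first 89 bases of the main Mt2 transcript held 3. Among all annotated coding transcripts, 0.0341% held as many in their first 128 bases and 0.15% as many in their first 89 bases. Those transcripts were not required to hold TATAAA, and both lengths were set by its place in Mt1 and Mt2. Their first bases may be a different kind of sequence, so these are not shares of promoters. Another annotated Mt1 transcript starts further downstream, at 94179211, close to the TATAAA letters. The core nearest to them is shown for each gene, in capitals, and it reads TGCGC followed by any base and C in both genes.
Mt1, transcript bases 106 to 112: caaacccttTGCGCCCggactcgtc
Mt2, transcript bases 66 to 72: cggagctttTGCGCTCgacccaata
These are matches of letters and not measurements of MTF-1 binding.

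Levels are given as FPKM, read fragments normalised to transcript length and to the number of mapped fragments, as deposited. They summed to 585823 in the WT library and 568329 in the KO library. The lowest recurring FPKM values put the depth near 5.87e+06 fragments for WT and 7.47e+06 for KO, an estimate from 17 and 19 genes. The targeted gene, Hif1a, had 30.4 FPKM in WT against 20.97 in KO, and this whole-gene value does not show the deleted exon. Apoe reads were present in both libraries, 94.3 FPKM in WT and 117 in KO, although both are labelled ApoE-/-, and a whole-gene value does not show whether the transcript is intact. Of 13 macrophage markers, 12 were matched, of which 5 were higher and 7 lower in KO. Their summed level was 16505 FPKM in WT and 15944 in KO, most of it C1qa, C1qb, C1qc and Lyz2. Adgre1, which encodes F4/80, was at 299 and 239 FPKM, and Itgam, which encodes CD11b, at 128 in both. At 2-fold, Mertk was higher, at 38.0 and 88.1 FPKM, and Fcgr1 lower, at 49.3 and 21.9, beside 23.1% and 22.5% of all genes. Of the 10 neutrophil markers, 4 reached 1 FPKM in both libraries and had higher levels in KO, and Retnlg, Ngp and Lcn2 passed the filter, at least 1 FPKM in at least 1 library, through KO alone, so that they could only be higher. The summed level of the 9 matched was 159 FPKM in WT and 531 in KO, with Camp and Ltf at 0 in both. Most of this sum was S100a8, with 73.3 and 182 FPKM, and S100a9, with 63.4 and 301 FPKM and past 3-fold, which together gave 137 FPKM in WT and 484 in KO. Of the 6 fibroblast markers, 3 reached 1 FPKM in both libraries and had higher levels in KO, with Dcn as the most abundant at 35.03 and 62.3 FPKM. Col1a2 and Pdgfra passed through KO alone, and the list summed to 43.2 and 84.3 FPKM. Adipoq, Plin1 and Retn, which mark adipocytes, were listed at 0 in both libraries. Their 8-gene list summed to 113 FPKM in WT and 120 in KO, most of it Fabp4, at 90.1 and 91.4 FPKM. Of the 5 genes of this list that passed the filter, 4 were higher and 1 lower in KO. Lipe was at 16.8 and 20.1 FPKM. Cfd, at 7.11 FPKM in KO, and Lep were listed at 0 in WT. Cidec, at 5.83 FPKM in WT, was listed at 0 in KO, so the filter fixed the direction of Cfd, Lep and Cidec. In sorted cells of this kind, more cells of a type and more RNA per cell cannot be told apart.

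The metallothioneins were the most abundant of the 9 genes and were higher in KO. Mt1 had 2522 FPKM in WT against 5126 in KO, which made it the 25th highest gene of the WT library and the 10th highest of the KO library. Mt2 had 709 FPKM in WT against 2268 in KO, and its place went from 133 to 28. The KO level was 2.03 times the WT level for Mt1 and 3.20 times for Mt2, and the changes were 1.02 and 1.68 as the difference of log2(FPKM + 1), KO minus WT. Mt1 thus exceeded Mt2 by 3.56 times in WT and by 2.26 times in KO. Together they were at 3231 FPKM in WT against 7394 in KO, or 0.552% and 1.30% of all FPKM. They made up 94.2% of the summed FPKM of the 9 genes in WT and 97.8% in KO.

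These 2 levels rest on many reads. With the median annotated transcript length of 633 nt for Mt1 and 449.5 nt for Mt2, the estimated fragments were 9372 in WT and 24228 in KO for Mt1, and 1871 and 7612 for Mt2. Counting error is small at such numbers, but the spread between animals and preparations was not measured. Both transcripts are short, and FPKM of short transcripts is sensitive to fragment length. With the trend of change over transcript length removed, the changes were 1.10 and 1.76. Among the 71 genes with a transcript under 700 nt and a mean of at least 500 FPKM, 27 had a higher and 44 a lower level in KO, with a median change of -0.08. That set includes Mt1 and Mt2, which were its only 2 genes at least 2-fold higher in KO. The 4 genes at least 2-fold lower were Ifi27l2a, Ndufa3, Rplp2 and Ccl8. The summed neutrophil and fibroblast markers, given above, were higher in KO as well, and their part in these values was not tested.

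**Figure D2:**
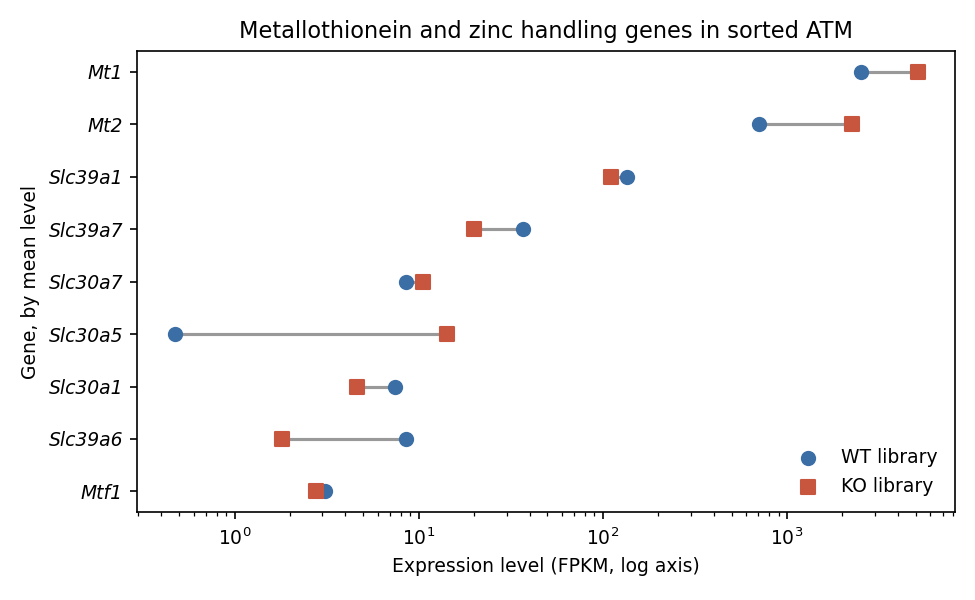
Expression level of the 9 genes in the WT library (circles) and the KO library (squares), as FPKM on a log axis, in the order of their mean level. Mt1 and Mt2 lie far above the other 7 genes, and Slc30a5 has the widest gap between the libraries, from 0.472 to 14.3 FPKM.

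Genes with a mean level of at least 1000 FPKM numbered 95, and 7 of them (7.37%) differed by 2-fold or more, 3 higher and 4 lower in KO. Larger in size than the change of Mt2 were 2 decreases, that of Ctdsp2, from 6839 to 43.5 FPKM, and that of the chemokine gene Ccl8, from 2203 to 649 FPKM. Ordered by increase in KO among these 95, Mt2 came first, Lars2, a mitochondrial leucyl-tRNA synthetase gene, came second with 1385 FPKM in WT and 3844 in KO, and Mt1 was next. Ifitm2, an interferon-induced membrane protein gene, followed with 1148 and 1978 FPKM, and Hmox1, which encodes heme oxygenase-1, with 937 and 1576. The 3 genes whose pair of levels was nearest to that of Mt1, by Euclidean distance over the 2 libraries on the log2(FPKM + 1) scale, were Lyz2 (distance 0.72), Cst3 (0.76) and Rplp1 (0.76). For Mt2 they were Hmox1 (0.66), Ifitm2 (0.72) and Ccl3 (0.84). Over 2 libraries, this distance measures level and change together.

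Mtf1 (ENSMUSG00000028890, chromosome 4, 124802104 to 124849800) was low, at 3.11 FPKM in WT against 2.77 in KO, a change of -0.12. This rested on an estimated 75.8 and 86.0 fragments. Its exons overlap by 721 bases with 1110065P20Rik on the opposite strand, which was at 7.26 FPKM in WT and listed at 0 in KO. The library protocol does not state that strand was kept, so reads from the overlap may belong to either gene.

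Of the exporters, Slc30a1 (ENSMUSG00000037434, chromosome 1, 191906767 to 191913247) encodes ZnT1, which carries zinc out across the plasma membrane. It had 7.42 FPKM in WT against 4.65 in KO, a change of -0.58. The exons of 1700034H15Rik, an antisense transcript, overlap it by 468 bases. The level of Slc30a1 was lower in KO, whereas that of Mt1 and Mt2, the other known MTF-1 targets among the 9 genes, was higher. The mean of Slc30a1 lies between 1 and 10 FPKM, where 60.6% of 4790 genes differed by 2-fold or more. MTF-1 activity was not tested. Slc30a7 (ENSMUSG00000054414, chromosome 3, 115938973 to 116007406) encodes ZnT7, which fills the Golgi with zinc. It had 8.54 FPKM in WT against 10.5 in KO, a change of 0.27, and 2 processed pseudogenes, Gm43106 and Gm6649, overlap its exons on the opposite strand.

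Slc30a5 (ENSMUSG00000021629, chromosome 13, 100802648 to 100833427), which encodes ZnT5 of the early secretory pathway, differed most. It had 0.472 FPKM in WT against 14.3 in KO, a change of 3.38 that rested on 8.18 estimated fragments in WT and 315 in KO. ZnT5 works as a pair with ZnT6, and Slc30a6, the gene of ZnT6, was listed at 0 in WT but had 8.12 FPKM in KO. Both values belong to a range where the libraries differed widely, since 45.6% of the 4790 genes whose mean lay between 1 and 10 FPKM were past 3-fold. One retained-intron transcript of Slc30a5 shares runs of 50 bases with other genes, while its coding transcripts share none. The 3 ZnT genes summed to 16.4 FPKM in WT and 29.5 in KO, and without Slc30a5 the sums were 15.96 and 15.2 FPKM.

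All 3 importers among the 9 genes were lower in KO, with Slc39a6 alone past 2-fold, as 22.5% of all genes were. Of the 8 other ZIP genes that passed the filter, 4 were higher and 4 lower. Only 3 of these 8 reached 1 FPKM in both libraries, Slc39a9, which was higher, and Slc39a10 and Slc39a13, which were lower. The others passed through 1 library alone, which fixed their direction. Slc39a1 (ENSMUSG00000052310, chromosome 3, 90248172 to 90253612) encodes ZIP1, a zinc importer of the plasma membrane. It was the most abundant transporter gene of the 9, at 136 FPKM in WT against 111 in KO, a change of -0.28. Its level was 3.70 times that of the next transporter in WT and 5.56 times in KO. Runs of 50 bases in its transcript are shared with the processed pseudogene Slc39a1-ps. Slc39a7 (ENSMUSG00000024327, chromosome 17, 34028269 to 34031682) encodes ZIP7, which releases zinc from the endoplasmic reticulum. It had 36.6 FPKM in WT against 20.0 in KO, a change of -0.84, and Gm20427 shares 2084 bases of exon with it on the same strand, so reads from that stretch may belong to either.

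Slc39a6 (ENSMUSG00000024270, chromosome 18) encodes ZIP6, which imports zinc at the plasma membrane. It had 8.57 FPKM in WT against 1.7995 in KO, 4.76 times lower as a ratio of FPKM, a change of -1.77 that rested on 78.9 estimated fragments in WT and 21.1 in KO. The 3 ZIP genes summed to 181 FPKM in WT and 133 in KO. ZIP genes therefore exceeded ZnT genes in summed level in both libraries, most of it Slc39a1.

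By level, the order in WT was Mt1, Mt2, Slc39a1, Slc39a7, Slc39a6, Slc30a7, Slc30a1, Mtf1 and Slc30a5. In KO it was Mt1, Mt2, Slc39a1, Slc39a7, Slc30a5, Slc30a7, Slc30a1, Mtf1 and Slc39a6. The top 4 places were held by the same genes in both libraries, and Slc30a5 and Slc39a6 changed places. Without replicates it cannot be said which neighbours in this order differ beyond their spread. Slc39a6, Slc30a7 and Slc30a1 lay within 7.42 to 8.57 FPKM in WT.

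All 9 genes passed the filter of at least 1 FPKM in at least 1 library, and 10297 genes in all did. Slc30a5 passed through the KO library only. In KO, 4 of the 9 genes were higher and 5 lower, with a median change of -0.12 beside 0.03 over all genes compared. At a 3-fold difference on the log2(FPKM + 1) scale, Mt2 and Slc30a5 were higher, where 13.6% of all genes compared were higher. Slc39a6 was lower, where 13.7% of all genes were lower. In either direction this was 3 of the 9 genes against 27.3% of all genes, and nothing is read from it because the genes were selected on this contrast. At 2-fold, Mt1 joined the higher genes, which made 3 of the 9 beside 23.1% of all genes, and 1 of the 9 was lower beside 22.5%. The median hides a difference in level, since Mt1 and Mt2 lie where few genes differed and Mtf1, Slc30a1, Slc30a5, Slc30a7 and Slc39a6 lie in the lowest range of level.

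**Figure D3:**
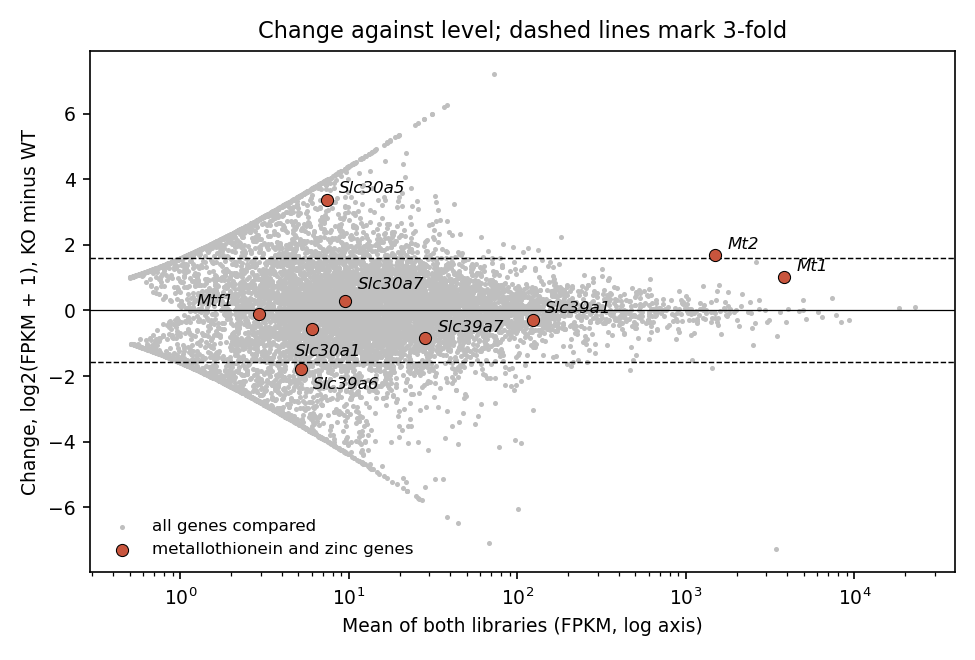
Change of each gene compared (vertical axis, log2(FPKM + 1), KO minus WT) against its mean level (horizontal axis, FPKM, log axis). Grey points are the 10297 genes and red points the 9 genes, and the dashed lines mark 3-fold. The grey cloud is widest at low levels and has single outlying genes at high levels, where Mt1 and Mt2 stand above most points, and Slc30a5 and Slc39a6 lie in its wide part.

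The share of genes past 3-fold was 14.6% of 4239 genes with a mean between 10 and 100 FPKM, 1.99% of 653 genes at 100 to 1000 and 3.16% of 95 genes above that. Slc39a7 lies in the 10 to 100 range and Slc39a1 in the 100 to 1000 range, and both were under 2-fold. The SD of the change across genes was 1.85 at 1 to 10 FPKM, 1.31 at 10 to 100, 0.63 at 100 to 1000 and 0.87 at 1000 and above, where Mt1 and Mt2 lie. In that highest range the 5th and 95th percentiles of the change were -0.75 and 0.63. These values describe how far unrelated genes differed between this pair of libraries and are not replicate errors.

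The rest of the family was examined next. Mt3, mainly known from brain, and Mt4, known from squamous epithelium, were listed at 0 in both libraries. Of the 20 other metallothionein, ZnT and ZIP genes, 10 were listed at 0 in both, 10 passed the filter, and 4 reached 1 FPKM in both libraries. Those 4 were Slc30a4 at 4.32 FPKM in WT against 3.32 in KO, Slc39a9 at 8.79 and 15.5, Slc39a10 at 12.1 and 5.17, and Slc39a13 at 15.3 and 11.8. These 4 genes were all under 3-fold, as were most genes at this level, since 11.5% of genes with at least 1 FPKM in both libraries were past it. Slc39a10 was past 2-fold lower, with a change of -1.09.

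Among the 10 genes that passed, 5 were higher and 5 were lower, with 3 past 3-fold higher and 1 past 3-fold lower, beside 13.6% and 13.7% of all genes. The 3 higher genes passed the filter through KO alone and the lower one through WT alone, which fixed their direction. The higher ones were Slc30a6, Slc39a12, with 3.33 FPKM in KO and a 0 in WT, and Slc39a14, at 0.599 and 4.66 FPKM. Slc39a14 encodes ZIP14, which also carries iron. The lower one was Slc39a3, at 4.60 FPKM in WT and listed at 0 in KO. Slc39a11, at 3.78 and 0.595 FPKM, differed 6.36-fold as a ratio of FPKM but by -1.58 on the log2(FPKM + 1) scale, where the pseudocount kept it just under the 3-fold threshold. The filter also fixed the direction of Slc39a11, which passed through WT alone, and of Slc39a5, whose only value above 0 was 1.40 FPKM in KO. The split of 5 and 5 therefore rests in part on the filter. Of the 4 genes that reached 1 FPKM in both libraries, Slc39a9 was higher, and Slc30a4, Slc39a10 and Slc39a13 were lower. A value of 0 can be a failed estimate in such a table, and no fold is given against it.

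Further genes known to be controlled by MTF-1 were on both sides. Of 5 of them, 2 were higher and 3 lower in KO, with a median change of -0.59 beside 0.03 over all genes. None was past 3-fold, beside 11.5% of all genes with at least 1 FPKM in both libraries. At 2-fold, Csrp1 and Slc39a10 were lower, beside 22.5% of all genes, and none was higher. Selenow, a selenoprotein gene, had 205 FPKM in WT against 136 in KO. Csrp1 was at 79.5 and 33.8 FPKM, and Slc39a10, which MTF-1 is known to repress, was lower as given above. Gclc, the catalytic subunit of glutathione synthesis, was at 31.4 and 53.7 FPKM, and Ndrg1 at 35.04 and 38.9.

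Because metallothioneins also bind copper, copper genes were compared. Of the 7 copper genes that passed the filter, 4 were higher and 3 lower. None differed by 3-fold, beside 11.5% of all genes with at least 1 FPKM in both libraries. At 2-fold, 1 was higher and 2 were lower, beside 23.1% and 22.5% of all genes, which include many low genes. Cox17, which delivers copper to cytochrome c oxidase, had the largest change, at 103 and 43.9 FPKM. Atox1, the copper chaperone of the secretory pathway, had 650 FPKM in WT against 300 in KO. In its range of mean level, 100 to 1000 FPKM, 33 of 653 genes were at least 2-fold lower and 18 higher. In the 10 to 100 range, where Cox17 and Ccs lie, 647 of 4239 genes were lower and 640 higher. Ccs, which delivers copper to superoxide dismutase 1, was at 20.7 and 46.5 FPKM, and Sod1 itself at 126 and 191. Slc31a1, the copper importer CTR1, was at 19.2 and 27.0 FPKM, Slc31a2 at 31.9 and 36.5, and the copper pump gene Atp7a at 11.3 and 8.94.

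Glucocorticoid-responsive genes were compared because glucocorticoids induce metallothioneins. Of 9 such genes, 7 had a higher and 2 a lower level in KO, with a median change of 0.22 beside 0.03 over all genes. Zfp36, Tsc22d3 and Dusp1 were among the 7 with changes of only 0.13, 0.19 and 0.22. Past 3-fold higher, as were 13.6% of all genes, were Zbtb16, at 7.89 FPKM in WT against 54.2 in KO, and Klf9, at 30.2 and 94.5 FPKM, both transcription factor genes. The change of Klf9 was 1.61, and with the length trend removed it was 1.496, under the threshold. Fkbp5, a co-chaperone of the glucocorticoid receptor, was at 26.9 and 52.7 FPKM, Per1 at 164 and 229, and Tsc22d3, which encodes GILZ, at 165 and 189. Ddit4 went the other way, at 19.1 FPKM in WT against 5.98 in KO, and its 3.19-fold ratio of FPKM became a change of -1.52, which the pseudocount kept under the threshold. Sgk1 was also lower, at 48.2 and 40.4 FPKM.

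Genes that respond to NRF2, the oxidant-activated transcription factor, were mixed. Of 9, 5 were higher and 4 lower in KO, with a median change of 0.68, and 1 in each direction was past 3-fold, beside 13.6% and 13.7% of all genes. Txnrd1, which encodes thioredoxin reductase, had 78.7 FPKM in WT against 126 in KO, and Srxn1 had 16.3 and 28.8. Gsr, glutathione reductase, was past 3-fold higher at 0.190 and 3.44 FPKM, but passed the filter through KO alone and could only be higher. Nqo1, past 3-fold lower, was at 18.3 FPKM in WT and listed at 0 in KO, so that it passed through WT alone, and Prdx1 was at 376 and 286 FPKM. Zinc, glucocorticoid and oxidant levels were not measured in these libraries.

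**Figure D4:**
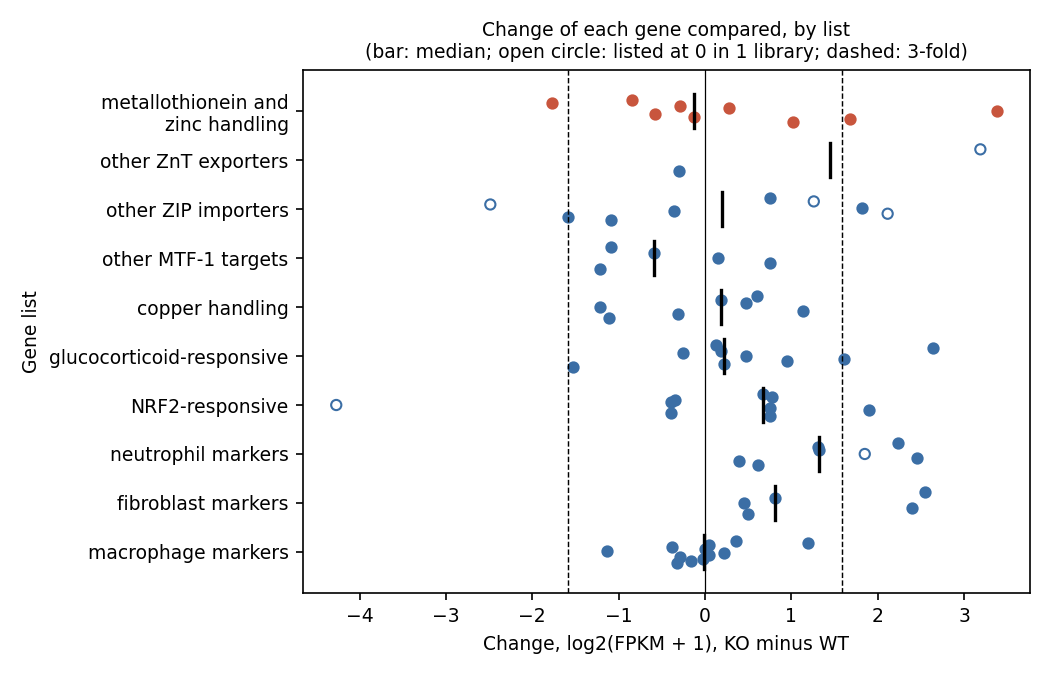
Change of every gene compared in 10 gene lists, as log2(FPKM + 1), KO minus WT, with a bar at the median of each list and open circles for genes listed at 0 in 1 library. The dashed lines mark 3-fold, the neutrophil and fibroblast markers compared lie to the right of 0, of which 3 and 2 passed the filter through KO alone, and the 9 metallothionein and zinc handling genes lie on both sides.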

How the data were processed

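RNA of sorted ATM was sequenced from poly(A) RNA, with 1 WT and 1 KO library. The authors deposited a single table of FPKM values. The submitters' processing notes name CASAVA 1.8.2, TopHat2 2.0.9, Cufflinks 2.2.1 and mm9, and the annotation and filters are not given in the sources used here. The mutant column was assigned to KO, since no other library was not WT. FPKM are not counts, so no count model was used. Of 20749 rows, 401 full repeats were dropped and 18 rows with a repeated identifier were summed. Symbols matched 98.5% of identifiers. Transcripts and coordinates are from GENCODE M21 (GRCm38), and promoter windows from RefSeq (GRCm38.p6), not from the build of the alignment. Changes are differences of log2(FPKM + 1) for genes with at least 1 FPKM in at least 1 library, computed with pandas 2.3.3 in Python 3.11.15, and the pseudocount understates changes of low genes. Fragment numbers come from the lowest recurring FPKM x kb, 0.170 in WT and 0.134 in KO, in genes with 1 annotated transcript. The calling and length correction were tested on simulated data with less spread between libraries than these 2 have. That test checks the computation and does not show how reliable the calls are here. The genes and lists were chosen with earlier results of these data known. Named were all 9 genes, list genes past 3-fold with at least 1 FPKM in both libraries, others needed to account for a list, and the 3 genes nearest to Mt1 and to Mt2. The alternatives were other pseudocounts, filters, scalings, a length correction, kept repeats and a 2-fold threshold. The lists of T cell, B cell, endothelial, mesothelial and mast cell markers were low, summing to at most 18.4 FPKM in a library.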

Additional observations from a re-analysis of the deposited data

How the results depend on the processing

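No paired analysis was possible because WT and KO were sequenced as 1 library each. Of 131 recomputed values, 120 moved by at most 1.5-fold, 11 moved by more and 0 changed sign. Many of them could not move, since the filters and kept repeats left the change of each single gene as it was. The counts among them carry no sign. The change of Mt1 lay between 1.02 and 1.10 and that of Mt2 between 1.68 and 1.76, and the sum of both genes was 2.29 to 2.36 times higher in KO. The median of the 9 genes lay between -0.26 and -0.09 in the settings that kept all 9. It was -0.20 where at least 1 FPKM was required in both libraries, which removed Slc30a5. With a mean of at least 5 FPKM, which removed Mtf1, it was -0.01. Slc30a5 gave 4.65 with a pseudocount of 0.1 and 4.89 with 0.01, and was left out where at least 1 FPKM was required in both libraries, so that 2 of the 9 genes were past 3-fold there instead of 3. At either of these pseudocounts, 6 of the other zinc genes were past 3-fold instead of 4. Requiring at least 1 FPKM in both libraries left 429 higher and 447 lower genes, 11.5% of those compared, and 0 of the other zinc transporter and metallothionein genes past 3-fold. A mean of at least 5 FPKM left 598 higher and 646 lower genes, and again 0 of the other zinc genes, because low genes were removed. At a 2-fold threshold there were 2380 higher and 2314 lower genes, and 7 of the other zinc genes. Depth limits Slc30a5 in WT, which rested on an estimated 8.18 fragments.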
